A study of Mus musculus with 2 samples.

Results

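The cells described here are 127 barcodes of mouse alveolar bone that held transcripts of Kit together with Cd34 or Flt3, out of 21809 cell barcodes in all. Each had at least 1000 unique molecular identifiers (UMIs, tags that mark single captured RNA molecules), at most 20% of them mitochondrial, at least 1 UMI of Kit, and at least 1 UMI of Cd34 and Flt3 together. Under 0.5% of the UMIs lay in the granule genes Mpo, Elane, Prtn3 and Ctsg, and there was no UMI of Cdh5, Emcn, Cd79a, Igll1, Fcer1a, Klf1 or Col3a1. The cells were thus chosen by measured counts, and the levels of those 14 genes describe the choice and support nothing else. Library 1 held 41 such barcodes of 9365 (0.438%, exact 95% interval 0.314 to 0.593%) and library 2 held 86 of 12444 (0.691%, 0.553 to 0.853%). All intervals below cover counting error only.

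The study used C57BL/6J mice of 6 to 8 weeks and 20 to 25 g. A nickel-titanium coil spring between the upper right first molar and the incisors pulled the molar with 25 g in one group, and control mice carried the spring with no force. On day 7 the bone within 1 mm of the socket of the extracted molar was collected, pooled from 6 of the 12 mice per group, digested for 60 min and freed of red cells by lysis, so marrow cells of many kinds can enter the sample. The labels used here tie neither library to force or control. The 2 libraries are therefore given side by side, with no comparison between groups, no test and no p-value.

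Haematopoietic stem cells sit in the marrow and give rise to every blood lineage through progenitors that lose options step by step. Kit is the receptor for stem cell factor and is carried by stem cells, most early progenitors and mast cells. Cd34 is a sialomucin of progenitors and endothelium, and Flt3 is a receptor kinase of multipotent and lymphoid progenitors and of the progenitors of dendritic cells. Alveolar bone marrow supplies the precursors of osteoclasts, the cells that resorb bone when a tooth is moved.

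The libraries held 77572847 and 116775367 UMIs in named genes. The median cell barcode had 3518 UMIs in library 1 and 4453.5 in library 2, against 5611 and 8659 for the Kit-positive barcodes, which therefore lay above the typical depth. They detected a median of 2260 and 2977.5 genes, and a median of 1.28% and 2.05% of their UMIs was mitochondrial. Doublets were not called. A total of 75 barcodes were cells in both libraries, and none of the 127 was among them.

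The Kit step left 771 and 1091 barcodes, the Cd34 or Flt3 step 233 and 409, the granule step 180 and 278, and the excluded genes 41 and 86. The thresholds were met narrowly by many. A single Kit UMI was found in 22 of 41 and 42 of 86 barcodes, and the highest number was 7 and 9. Cd34 and Flt3 together gave exactly 1 UMI in 13 and 30 barcodes. For scale, 6.83% and 6.33% of stromal barcodes (those with at least 20 Col3a1 UMIs, median depth 6917 and 6821 UMIs) also held a Kit UMI, 2.86% and 2.21% a Cd34 UMI, and 0.497% and 0.380% a Flt3 UMI. Granule genes reached at most 0.206% of UMIs in library 1 and 0.496% in library 2 inside the limit. The lowest shares just outside it were 0.849% and 0.568%.

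Col3a1, a fibrillar collagen of fibroblasts, removed the most barcodes at the last step, 103 and 136. It was the sole reason for removal of 44 and 84, beside the 41 and 86 kept. Of these, 19 and 55 held a single Col3a1 UMI, 39 and 73 held at most 3, and 35 and 70 held Ptprc, the pan-leukocyte gene CD45. Col3a1 also stood at 1967 and 3109 CPM (UMIs of a gene in a pool of barcodes, scaled to a common total) in barcodes under 100 UMIs, which hold mostly free RNA. In the 39 and 73 barcodes with at most 3 Col3a1 UMIs, 20 and 19 of the 20 leading genes named below were at least 2-fold above other cell barcodes, with a median log2 ratio of 2.48 and 2.47. Whether those barcodes are cells of the same kind was not tested.

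**Figure D1:**
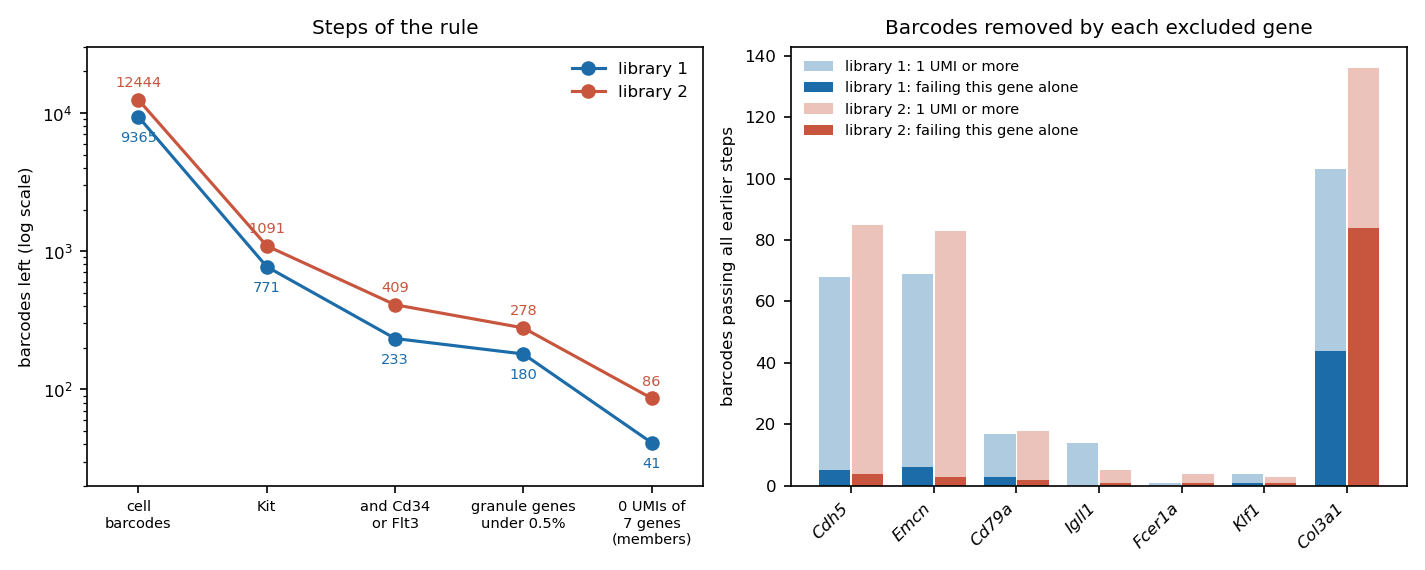
Left, barcodes left after each step of the rule in each library, on a log axis; right, barcodes that passed all earlier steps and held each excluded gene (pale bars) or failed on that gene alone (full bars). The last step kept 41 and 86 barcodes, and Col3a1 alone removed 44 and 84.

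The label stem and early progenitor cells was not used for the whole set. Ptprc was found in 29 of 41 and 68 of 86. Thinned to 1000 UMIs, it was found in 31.7% (18.1 to 48.1%) and 30.2% (20.8 to 41.1%). Other cell barcodes gave 27.8% and 20.95%, inside those intervals, so Ptprc did not set the Kit-positive barcodes apart. Endothelial and stromal marker lists were below their level in other cell barcodes. The rule removed barcodes with Cdh5, Emcn or Col3a1 and so bears on this. Cd34 and Flt3 are genes of the rule, so their shares describe the choice. Cd34 was found in 27 (65.9%, 49.4 to 79.9%) and 58 (67.4%, 56.5 to 77.2%) barcodes and Flt3 in 25 (61.0%, 44.5 to 75.8%) and 56 (65.1%, 54.1 to 75.1%). Both were found in 11 and 28. The 127 barcodes were mixed, so they are called Kit-positive barcodes here.

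The mixture was described by 6 gene lists for stem cells, lymphoid, myeloid, erythroid and megakaryocyte, mast and basophil, and dendritic cells. Each barcode was put with the list whose summed UMIs were the largest, if they came to at least 2, so lists with abundant transcripts lead more easily. Such a leading list is a range of scores and not a cell type. In library 1 the dendritic list led in 13 barcodes, the lymphoid list in 10, the stem list in 5, the erythroid and megakaryocyte list in 5, the myeloid list in 2 and the mast list in 1, and no list led in 5. In library 2 the stem list led in 24, the dendritic list in 22, the lymphoid list in 17, the myeloid list in 10, the erythroid and megakaryocyte list in 9 and the mast list in 3, and no list led in 1. Among those with a leading list, 5 barcodes of library 1 and 2 of library 2 lay within 1 UMI of the next list. The stem list thus led in 12.2% (4.08 to 26.2%) of the Kit-positive barcodes of library 1 and 27.9% (18.8 to 38.6%) of those of library 2, a pair of intervals that overlap. The leading list depended on depth. With the Kit-positive barcodes thinned to 1000 UMIs, the stem list led in 3 and 13, and no list led in 13 and 20.

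**Figure D2:**
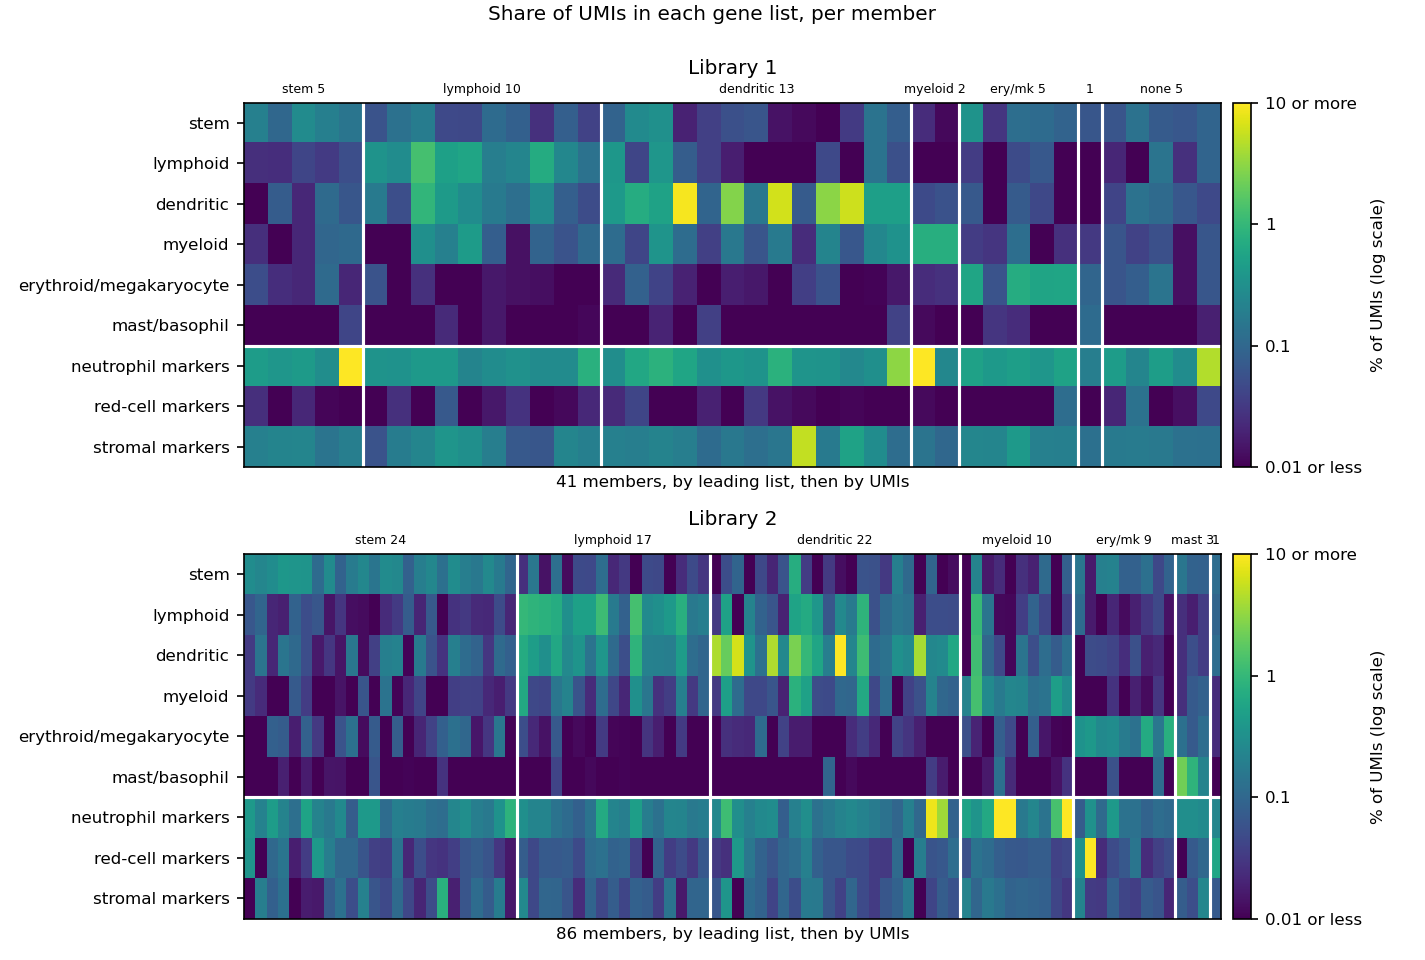
Each column is 1 Kit-positive barcode (called a member in the plots), ordered by its leading list and then by UMIs; colour gives the percent of its UMIs in each list on a log scale, with the 6 programme lists above the white line and markers of other cell types below it. The columns fall into blocks by construction, and single columns carry high neutrophil, stromal or haemoglobin shares.

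Stem-cell genes were present but thin. Hlf, a transcription factor of long-term stem cells, stood at 52.3 CPM (29.3 to 86.2) and 64.9 CPM (49.0 to 84.3), against 8.83 and 10.6 in other cell barcodes, and was found in 9 and 25 Kit-positive barcodes. That is 22.0% and 29.1% of them, at median depths of 5611 and 8659 UMIs, against 11.7% and 7.40% of stromal barcodes. Meis1, a homeobox partner of the HOXA proteins, stood at 66.2 and 60.3 CPM against 7.54 and 7.69, in 13 and 29 barcodes, and in 1.12% and 1.07% of stromal ones. Hoxa9, a homeobox gene of early progenitors, stood at 24.4 and 74.2 CPM against 1.82 and 2.57. Mecom, required for stem-cell maintenance, was found in only 4 and 8 barcodes. Slamf1, the stem-cell surface marker CD150, was found in 1 barcode of each library. Fgd5, another stem-cell marker, had 1 UMI in library 1 and none in library 2, where the upper exact 95% limit was 4.28 CPM.

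Hlf is a gene of the stem list, so its high level in barcodes led by that list is fixed by the assignment. Barcodes led by the stem list held Hlf at 288 CPM in library 1 (9 UMIs) and 175 CPM in library 2 (38 UMIs). Ctla2a, a cysteine protease inhibitor related to a cathepsin propeptide, reached 7197 and 2986 CPM there and was found in 5 of 5 and 24 of 24 barcodes. It was not used by any list. It was as frequent in barcodes led by the erythroid and megakaryocyte list (5 of 5 and 8 of 9, at 6328 and 2013 CPM). In lymphoid-led barcodes it stood at 650 and 196 CPM and in dendritic-led ones at 542 and 374 CPM. One stem-led barcode of library 1 held 142 of the 533 Ctla2a UMIs, where the stem-led barcodes held 225. For Ctla2a the stem-led interval (6287 to 8201 CPM) and the erythroid and megakaryocyte-led one (5333 to 7454 CPM) overlapped in library 1. Muc13, a transmembrane mucin, stood at 320 CPM (153 to 588) and 193 CPM (139 to 261) in the stem-led barcodes. In the erythroid and megakaryocyte-led ones it stood at 531 CPM (274 to 928) and 341 CPM (252 to 453). The intervals of these blocks overlapped in both libraries. Angpt1, the Tie2 ligand angiopoietin 1, is also a gene of the stem list. It stood at 128 and 202 CPM in the stem-led barcodes and 266 and 263 CPM in the erythroid and megakaryocyte-led ones.

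The lymphoid-led barcodes carried some genes of early B and T lineage steps, as their assignment requires. Dntt, the terminal transferase that adds bases at V(D)J joints, stood at 847 and 436 CPM and was found in 6 of 10 and 10 of 17 of them. One barcode held 27 of the 57 Dntt UMIs of library 1. Ly6d, a surface marker of B-lineage commitment among lymphoid progenitors, stood at 832 and 2446 CPM. Satb1, a chromatin organiser of lymphoid cells, stood at 439 and 537 CPM, and Il7r, the receptor for the B- and T-cell growth factor interleukin 7, at 60.5 and 228 CPM. Il7r rested on 4 UMIs in library 1, and in dendritic-led barcodes it stood at 54.2 and 148 CPM. Other genes of the lymphoid list were nearly absent from the lymphoid-led barcodes. Rag1 had 0 UMIs in both libraries, Rag2 had 2 and 1, and Ebf1 had 2 and 0. Ccr9, a chemokine receptor of thymus-seeding progenitors and plasmacytoid dendritic cells, stood at 318 and 310 CPM. Siglech, a lectin of plasmacytoid dendritic cells, stood at 166 and 569 CPM in these same barcodes, and Irf8, a factor for dendritic and monocyte lineages, at 665 and 506 CPM. Siglech was found in 4 and 9 of these barcodes, and 1 and 4 held both Siglech and Dntt. Whether these genes mark different barcodes was not tested.

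The dendritic-led barcodes differed among themselves. In 5 of 13 and 6 of 22, H2-Aa, a chain of MHC class II, had at least 20 UMIs, a limit set after the values were seen, and lay between 42 and 147 in library 1 and between 28 and 213 in library 2. These few barcodes held 97.4% and 87.4% of all H2-Aa UMIs of the Kit-positive set. No other Kit-positive barcode had more than 3 and 11. All 5 and 5 of the 6 held Flt3, and 3 and 2 held Ccr7, the chemokine receptor of migrating dendritic cells. The remaining 8 and 16 took their place in this block from Cd74, the class II invariant chain, and from other genes of the list such as Bst2, Tcf4 and Siglech. Averages of class II genes over the Kit-positive barcodes therefore rest on 11 barcodes.

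The smaller blocks are described by genes of the lists that formed them, so their high level there is fixed by the assignment. In the 5 and 9 erythroid and megakaryocyte-led barcodes, Car2, carbonic anhydrase 2, stood at 4071 and 1145 CPM and Itga2b, the platelet integrin CD41, at 221 and 228 CPM. Pf4, the platelet chemokine, stood at 752 and 2013 CPM, but 1 barcode of library 2 held 178 of that library's Pf4 UMIs. None of the 5 and 2 of the 9 held Flt3. The mast-led barcodes, 1 and 3, had Cpa3, the mast-cell carboxypeptidase, at 478 CPM (3 UMIs) and 3999.7 CPM (62 UMIs). The barcode of library 1 led by only 1 UMI over the next list and held neither Mcpt8 nor Ms4a2. In library 2 Mcpt8 stood at 2193 CPM and Ms4a2 at 1032 CPM, each found in 2 of the 3. Both are basophil and mast-cell genes, although the rule removed Fcer1a. The 2 and 10 myeloid-led barcodes had Ly6c2, a monocyte surface gene, at 4811 and 1610 CPM, and Fcnb, a ficolin of neutrophil progenitors, at 1275 and 196 CPM. Fcnb was found in 2 of the 2 and 2 of the 10. In 1 of the 2 and 4 of the 10, mature neutrophil markers made up 1% or more of UMIs.

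**Figure D3:**
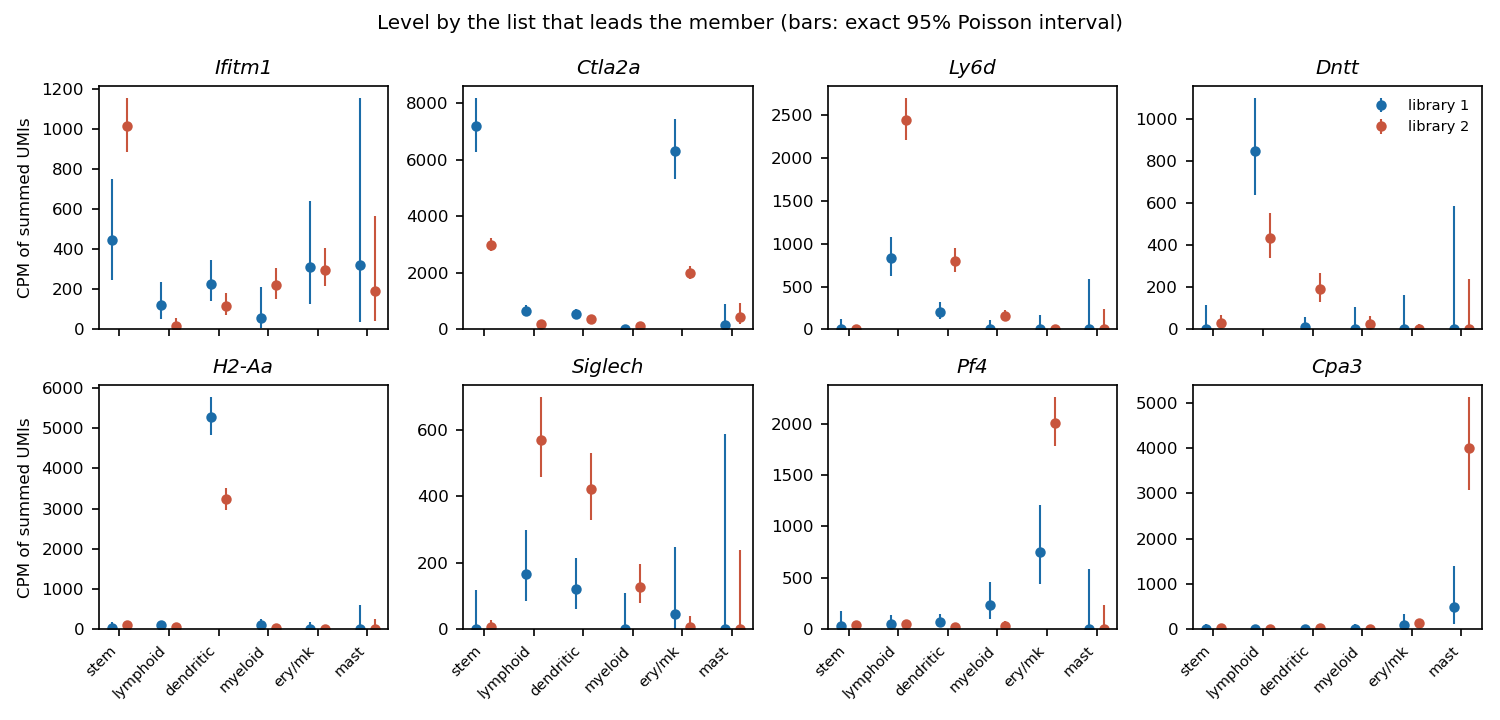
CPM of summed UMIs (linear axes from 0) for single genes in the Kit-positive barcodes of each leading list; points are libraries, bars are exact 95% Poisson intervals. Dntt peaks with the lymphoid list and H2-Aa with the dendritic list by construction, while Ctla2a, in no list, is high in both the stem and the erythroid and megakaryocyte blocks.

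Markers of mature cells were found in a few of the Kit-positive barcodes. In 4 and 7 of them, neutrophil markers made up 1% or more of UMIs, and these held 80.6% and 89.1% of the set's neutrophil-marker UMIs. The largest number was 7801 of 32587 UMIs, and the largest share was 35.5%, in another barcode of library 2. One more barcode of library 2 held 3928 haemoglobin and Alas2 UMIs of 5995, and 1 of library 1 held 435 stromal-marker UMIs of 8296. Summed over the Kit-positive barcodes, the neutrophil list of 8 genes stood at 17773 and 18045 CPM against 64332 and 69638 in other cell barcodes. The stromal list of 8 genes stood at 3307 and 823 against 42986 and 36669 CPM. The macrophage list stood at 1045 and 755 against 2424 and 2535, and the endothelial list at 132 and 148 against 218 and 214. The rule removed barcodes with Cdh5, Emcn or Col3a1, which bears on the endothelial and stromal values. The part of these markers in the results below was not tested except by leaving out the 5 and 8 barcodes at 1% or more, which is given where it matters.

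The Kit-positive barcodes were then set against all other cell barcodes. A gene was counted as higher or lower if its CPM differed at least 2-fold the same way in both libraries, with levels under 3 UMIs set to 3 UMIs. It needed at least 20 UMIs in the Kit-positive barcodes of each library, or 20 expected at the other barcodes' rate. Of 3226 such genes, 243 were higher (7.53%) and 331 lower (10.3%), and the median log2 ratio over all of them was 0.30 and 0.33. A gene that qualified through high counts in the Kit-positive barcodes had more chance to be counted as higher. Against other barcodes with Ptprc, 174 were higher and 276 lower.

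The 20 leading higher genes had mixed roles, with Dntt at the top, and 4 of them, Dntt, Bcl11a, Siglech and Ccr9, were on the lymphoid or dendritic lists. Dntt was 15.7-fold and 11.5-fold higher, at 199 CPM (150.4 to 257) and 129.8 CPM (107 to 156). Bcl11a, a transcription factor of lymphoid and plasmacytoid dendritic cells, was 6.87-fold and 6.64-fold higher, Siglech 5.99-fold and 6.38-fold, and Ccr9 8.62-fold and 5.06-fold. Where at least 2 Kit UMIs were required, Ccr9 fell to a log2 ratio of -0.27 in its weaker library. The others were on neither list. Ctla2a was 8.11-fold and 6.26-fold higher, at 1857 CPM (1703 to 2022) and 1229 CPM (1156 to 1305) against 229 and 196. Muc13 was 9.84-fold and 9.82-fold higher. Tnip3, an inhibitor of NF-kappaB signalling, was 9.03-fold and 19.7-fold higher, and Gpr171, an orphan G-protein-coupled receptor, 9.31-fold and 8.14-fold. Serpina3g, a serpin of stem and activated immune cells, was 10.5-fold and 7.38-fold higher, at 700.3 and 232 CPM. Csf2rb2, the mouse interleukin 3 receptor beta chain, was 6.12-fold and 5.17-fold higher. The other named genes, Mir155hg, the host transcript of miR-155, Klrd1, the lectin receptor CD94, Rgs1, a regulator of G-protein signalling, Ramp3, a receptor-activity-modifying protein, and Serpina3f, Pkib, Tagap, Gm43305, Lrp8 and Arap2 lay between 4.82-fold and 11.5-fold.

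Collagen and matrix genes led the lower genes, in a comparison whose other side holds the stromal cells. Col1a2, a chain of type I collagen, was 17.2-fold and 46.5-fold lower, at 760 and 206 CPM against 13045 and 9595. Lox, which crosslinks collagen, was 24.3-fold and 24.5-fold lower. Aspn, a small proteoglycan of the periodontal ligament, had no UMI in library 1 and 10 in library 2, at least 26.5-fold and 69.3-fold lower. The other 5 named genes, Mmp14, Aebp1, Ogn, Loxl2 and Serpine2, had between 0 and 14 UMIs in the Kit-positive barcodes. The rule set Col3a1 to 0 and so bears on this difference.

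**Figure D4:**
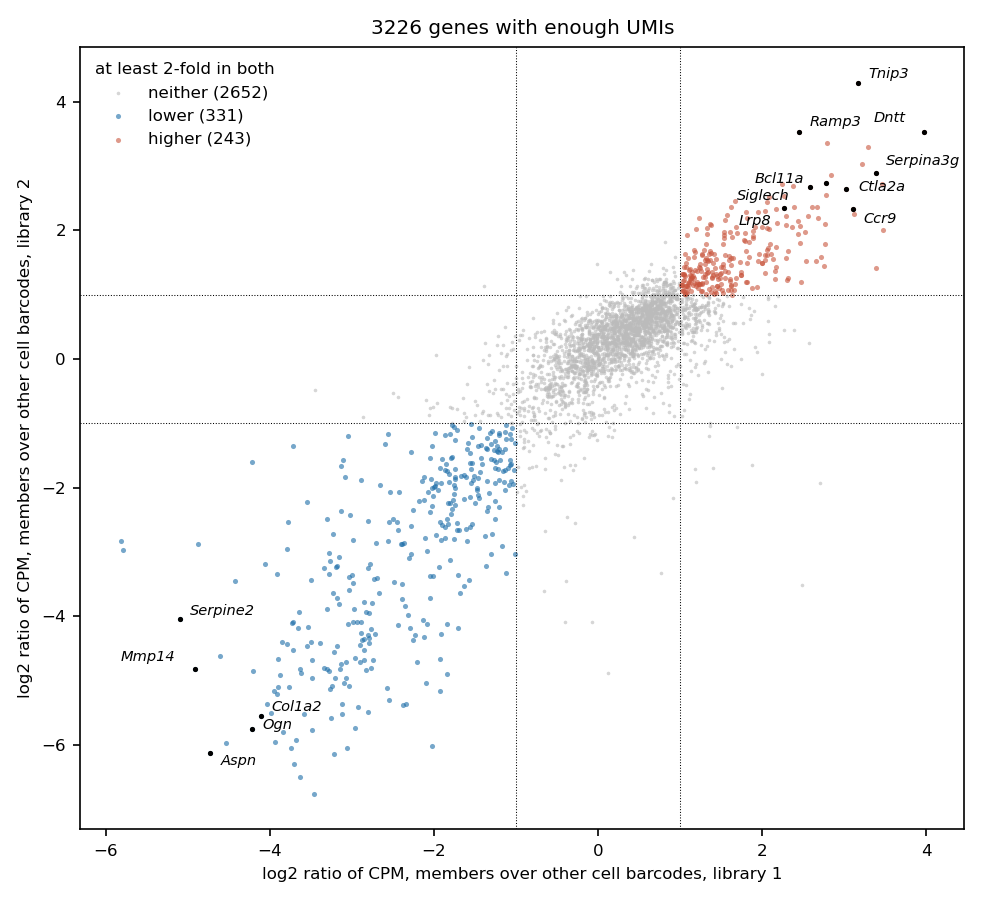
Log2 ratio of CPM, Kit-positive over other cell barcodes, in library 1 (horizontal) and library 2 (vertical); each point is 1 of the 3226 genes. The 243 higher and 331 lower genes are coloured, and the named genes lie at the far corners, from Dntt and Ctla2a to the collagen genes.

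Of the 14 stem genes only Ly6a and Ifitm1 had enough UMIs and both were higher. Ly6a, the antigen Sca-1, was 3.05-fold and 2.38-fold higher at 299.6 and 232 CPM, but stromal barcodes held it too, at 105 and 139 CPM. Ifitm1, an interferon-induced membrane protein of stem cells, was 2.36-fold and 4.59-fold higher. Of 11 lymphoid genes 7 qualified and 5 were higher, Dntt, Satb1, Ly6d, Ccr9 and Bcl11a, with none lower. Of 11 dendritic genes 6 qualified and 5 were higher, Siglech, Bst2, Cd74, H2-Aa and H2-Ab1, with H2-Aa at 1735 and 669.9 CPM against 262 and 223. Of 12 myeloid genes 9 qualified. Irf8 and Ly86, the latter a partner of the Toll-like receptor relative CD180, were higher, and Cebpe and Ms4a3, genes of committed granulocyte precursors, were lower. Of 16 erythroid and megakaryocyte genes 5 qualified, of which Aqp1, Pf4 and Ppbp were lower and 0 higher. Of 10 mast genes 2 qualified, Hdc and Prss34, and both were lower. The rule removed barcodes with Klf1 or Fcer1a and so bears on these lists. Over all 3226 genes the shares were 7.53% higher and 10.3% lower.

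Transcription factors of early blood cells were higher where called. Of 18 on the list 9 qualified and 5 were higher, with none lower. Tal1, a helix-loop-helix factor of stem and erythroid cells, was 4.11-fold and 3.06-fold higher, Etv6, an ETS-family repressor needed by adult stem cells, 3.46-fold and 3.87-fold, Lmo2, a bridging partner of Tal1, 3.12-fold and 2.98-fold, Erg, an ETS factor of stem cells, 3.09-fold and 2.75-fold, and Ikzf1, the lymphoid zinc-finger protein Ikaros, 2.50-fold and 2.00-fold. Gata2, a zinc-finger factor of stem and mast cells, stood at 62.7 and 98.5 CPM against 16.9 and 17.8, with 18 UMIs in library 1, too few to qualify.

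Cytokine receptors and homing and adhesion genes were set beside the 7.53% of all 3226 genes that were higher. Csf2rb, the shared beta chain of the GM-CSF, interleukin 3 and interleukin 5 receptors, and Csf2rb2 were the 2 higher genes of 13 qualifying cytokine receptors. Itga4, the integrin alpha 4 chain that holds progenitors in marrow, Selplg, the selectin ligand PSGL-1, and Cd93 were among the 4 higher of 11 qualifying homing genes, a list whose median log2 ratio was 0.85 and 0.81. Against other barcodes with Ptprc only 1 of 12 was. Cxcr4, the receptor for the marrow retention factor CXCL12, stood at 146 and 143 CPM against 196 and 175. Of 5 qualifying osteoclast precursor genes none was called, and Tnfrsf11a, the receptor RANK, had no UMI in library 1 and 1.16 CPM in library 2.

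Cell-cycle entry and division genes were read apart. Ccnd2, cyclin D2, was 3.71-fold and 3.77-fold higher at 564 and 520 CPM, and Cdk6, its kinase partner, 3.87-fold and 4.88-fold at 307 and 449 CPM. None of 9 qualifying S-phase genes and none of 7 qualifying G2 and M genes was called either way. Mki67, the proliferation antigen, stood at 296 and 508 CPM against 385 and 497. With every barcode thinned to 1000 UMIs, at least 2 UMIs of the G2 and M list were found in 22.0% (10.6 to 37.6%) and 31.4% (21.8 to 42.3%) of the Kit-positive barcodes against 15.2% and 19.0% of the others. Unthinned the shares were 41.5% and 60.5% against 29.1% and 34.2%. At least 2 UMIs of the S-phase list were found at 1000 UMIs in 19.5% (8.82 to 34.9%) and 46.5% (35.7 to 57.6%) against 19.4% and 22.8%. The Kit-positive barcodes of library 1 were thus not set apart from other cells by S-phase UMIs, and those of library 2 lay above them.

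The immediate early genes, which rise within minutes of stimulation or tissue digestion, were lower than in other cell barcodes where called. Of 18 genes, all of which qualified, 6 were lower, Fos, Fosb, Egr1, Klf2, Klf4 and Dusp1, and none was higher. Egr1 stood at 345 and 98.5 CPM against 1014 and 604, and 1 barcode held 61.6% of its UMIs in library 1. Against other barcodes with Ptprc, 1 of 18 was lower. Npm1 and Fbl, nucleolar proteins of ribosome assembly, were 2.10-fold and 2.02-fold, and 2.32-fold and 2.24-fold higher, while Myc, which drives that programme, was lower at a log2 ratio of -1.74 and -1.84. Of 12 interferon genes, Bst2 and Mx1 were higher, and the list's median log2 ratio was 0.90 in library 1 and -0.61 in library 2.

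The barcodes closest to the set were those that met every step but held granule genes at 0.5% or more. There were 6 in library 1 and 33 in library 2, with a median of 14316.5 and 21830 UMIs, so the library 1 values rest on few barcodes. Of 3439 genes, 344 were higher in the Kit-positive barcodes (10.0%) and 172 lower (5.0%), with a median log2 ratio of 0.11 and 0.01 over all genes. All 7 qualifying lymphoid genes and all 6 dendritic genes were higher. In library 1, however, the granule-rich barcodes held only 11 UMIs of the lymphoid list and 41 of the dendritic list. Nearly all lymphoid genes thus qualified there through the Kit-positive side. Against levels raised to 3 UMIs, their call as higher in library 1 was largely fixed in advance. Cd74 was 46.1-fold and 44.3-fold higher, and H2-Aa had 498 and 578 UMIs in the Kit-positive barcodes against 1 and 3. Cd83, a gene of activated dendritic and B cells, had no UMI in the granule-rich barcodes of library 1, at least 12.1-fold higher, and was 21.8-fold higher in library 2. H2-Ab1 and H2-Eb1, further class II chains, and Rgs1, Cxcl2 and Iigp1 were the other leading genes. The class II values rest on the 11 barcodes described above. Of 18 immediate early genes, 7 were higher in the Kit-positive barcodes and none lower, with a median log2 ratio of 0.98 and 1.23. Fosb, Egr1 and Klf4 were thus higher here, though lower against all other cell barcodes.

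Granulocyte precursor genes were lower, as the granule step chose for. Ms4a3, a gene of granulocyte and monocyte progenitors, was 48.6-fold and 46.4-fold lower, at 17.4 and 13.9 CPM against 846 and 645. Prss57, a granule serine protease outside the rule, was 21.1-fold and 8.29-fold lower, and Gstm1, a glutathione transferase, 10.2-fold and 8.43-fold. Gfi1, a repressor needed for granulocyte development, had 0 and 2 UMIs in the Kit-positive barcodes against 11 and 36. Sema3e, Saa3, Zc3h12b and Dio2 were the other leading lower genes. Mature neutrophil markers ran the other way, with 5 of 7 higher in the Kit-positive barcodes, but with the 5 and 8 marker-rich barcodes left out none was higher and 2 were lower. Thinned to 1000 UMIs, at least 2 S-phase UMIs were found in 83.3% (35.9 to 99.6%) and 75.8% of the granule-rich barcodes, against the 19.5% and 46.5% of the Kit-positive ones.

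Within the set, Flt3 split the barcodes into 25 and 56 with a Flt3 UMI and 16 and 30 without. The median depth was 7228 and 9116.5 UMIs with Flt3 and 4582.5 and 8410 without, and at 1000 UMIs only 17.1% and 18.6% of the Kit-positive barcodes kept a Flt3 UMI, so absence of a UMI does not show absence of the transcript. Those without Flt3 held Cd34 by the rule. Of 2227 genes, 82 were higher with Flt3 (3.68%) and 37 lower (1.66%), with a median log2 ratio of -0.01 and 0.05. Where at least 2 Kit UMIs were required, 26 of the 82 and 13 of the 37 were called, with fewer barcodes and fewer genes to compare.

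Lymphoid and dendritic genes lay on the Flt3 side. Ly6d had 74 UMIs with Flt3 and none without in library 1, at least 13.4-fold higher, and was 59.1-fold higher in library 2, at 972 against 16.5 CPM. Ighm, the heavy chain of immunoglobulin M, was 11.8-fold and 7.75-fold higher. Siglech had 22 and 182 UMIs with Flt3 against 1 and 1 without. Of 7 qualifying lymphoid genes 5 were higher, Dntt, Ly6d, Ccr9, Bcl11a and Blnk, the last an adaptor of the B-cell receptor. In library 1 Ly6d, Blnk and Siglech qualified only through their counts with Flt3, so the counts of genes called here are partly set by the filter. Of 6 dendritic genes 5 were higher. Ccr7, Marcks, Ccl5, Gm21762 and Klrd1 were the other leading genes. Where at least 2 Kit UMIs were required, Gm21762 turned to a log2 ratio of -1.11 in its weaker library. Ccr7 was found in only 4 Kit-positive barcodes of library 1, and 1 of them held 27 of its 47 UMIs.

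Gata2 and genes of the erythroid and megakaryocyte list were lower in the barcodes with a Flt3 UMI. No gene of the mast list had enough UMIs, and that list summed to 102 and 115 CPM with Flt3 and 89.1 and 632 CPM without. Gata2 stood at 16.1 CPM (3.33 to 47.1) and 26.8 CPM (15.02 to 44.3) with Flt3 and 148 CPM (83.1 to 245) and 230.3 CPM (179.5 to 291) without. Ctla2a stood at 1452 and 646 CPM with Flt3 and 2603 and 2300 CPM without. Car2 and Pf4, the qualifying erythroid and megakaryocyte genes, were both lower with Flt3. Id1, an inhibitor of helix-loop-helix factors, had 2 and 1 UMIs with Flt3 (1.30 to 38.8 and 0.0453 to 9.97 CPM) and 16 and 20 without (90.5 to 257 and 40.2 to 102 CPM), and Apoe, Slc18a2, Ppp1r13b and Pdzk1ip1 were among the leading lower genes. Egr1 was at -2.37 and -2.22, but at 0.23 in its weaker library once the marker-rich barcodes were left out. Hlf stood at 43.0 and 55.5 CPM with Flt3 and 69.3 and 82.3 CPM without, intervals that overlap in both libraries, and Meis1 and Hoxa9 intervals overlapped as well.

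**Figure D5:**
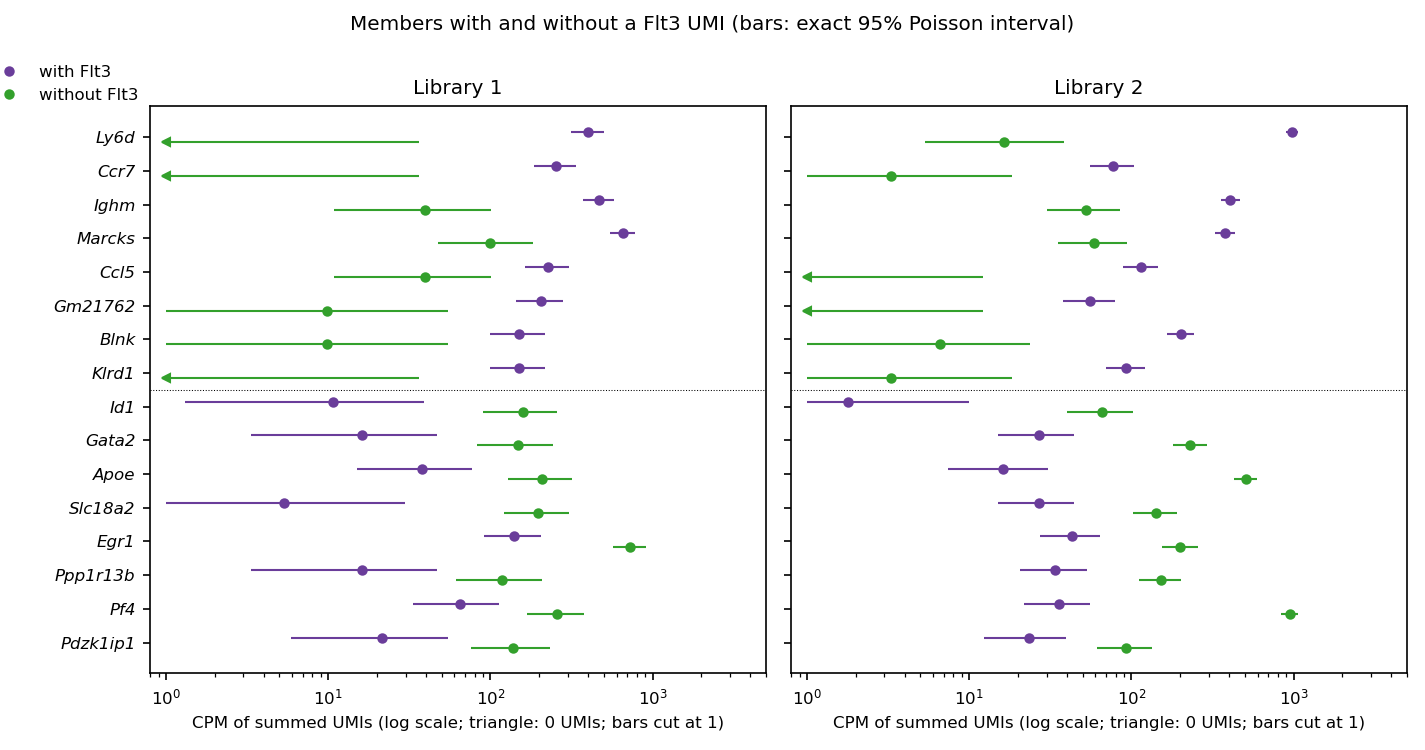
CPM of summed UMIs (log axis) in Kit-positive barcodes with and without a Flt3 UMI, per library; bars are exact 95% Poisson intervals and triangles mark 0 UMIs. Ly6d and Ccr7 lie to the right with Flt3 and Gata2 to the left in both libraries, but Ccr7 was found in only 4 barcodes of library 1.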

How the data were processed

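The deposited files are unfiltered matrices of raw UMI counts per gene and barcode for 2 libraries made with the GEXSCOPE kit, per the labels. FastQC 0.11.9 and the builds mm10 and GRCh38 appear, with no role, in the submitters' processing notes. Which aligner, counting program and annotation were used is not stated by these notes or labels. Features without a symbol, 0.602% and 0.431% of UMIs, were left out. Levels are CPM of UMIs summed over barcodes with exact Poisson 95% intervals, and shares have exact Clopper-Pearson intervals; both cover counting error only. The mice of a library were pooled, so no value has a replicate spread. Genes that share reads with near-identical copies, such as haemoglobin and MHC class II genes, are uncertain.

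The named genes are the 20 higher and 8 lower with the largest smaller ratio of the 2 libraries for other cell barcodes, and 8 in each direction for the other comparisons. The set and the 25 gene lists were chosen with earlier results of these data known. For shares at equal depth each barcode was thinned to 1000 UMIs at random. The ratio step was tested on simulated data. Some genes of the lists are not reported here. Alternatives changed the UMI minimum, the mitochondrial, Kit and granule limits, the excluded genes, the gene filter, the fold, the averaging, the depth and the barcodes compared. Python 3.11.15, numpy 2.4.6, pandas 2.3.3, scipy 1.17.1 and matplotlib 3.10.9 were used.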

Additional observations from a re-analysis of the deposited data

How the results depend on the processing

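The share of Kit-positive barcodes depended on the limits of the rule. In library 1 it was 0.203% with at least 2 Kit UMIs, 0.822% with 1 UMI of each excluded gene allowed, 0.0854% after thinning to 1000 UMIs and 0.854% with up to 3 Col3a1 UMIs allowed. In library 2 these were 0.354%, 1.27%, 0.0643% and 1.28%. The other limits tried left both shares within their counting interval.

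The counts of called genes are given in the order higher and lower than other cell barcodes, higher and lower than the granule-rich barcodes, higher and lower with Flt3, and were 243, 331, 344, 172, 82 and 37. With 50 UMIs per gene, which tests fewer genes, they were 109, 152, 155, 79, 29 and 11. With the floor of 3 UMIs as the only filter they were 11243, 766, 360, 465, 145 and 156, and the first of these comes from the floor itself, which lifts genes with few UMIs. At 3-fold they were 72, 229, 106, 55, 32 and 12. With at least 2 Kit UMIs, which left fewer genes to test, they were 161, 175, 191, 97, 62 and 25, of which 122, 153, 159, 71, 26 and 13 were also called under the rule itself, so most calls with Flt3 were not shared. Of the named genes 13 of 20, 8 of 8, 8 of 8, 4 of 8, 4 of 8 and 3 of 8 kept their call in that order. Ccr9 (log2 -0.27, against other cell barcodes) and Gm21762 (log2 -1.11, with Flt3) reversed, each value being that of the gene's weaker library. With up to 3 Col3a1 UMIs they were 404, 657, 327, 260, 211 and 142. Without the 5 and 8 marker-rich barcodes Egr1 reversed to 0.23 with Flt3 in its weaker library. The Col3a1 and marker-rich alternatives were chosen after seeing the data. The cause of the reversals was not tested.

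No paired analysis was possible because the labels put neither library in a group. Depth limits the reading of single genes: most barcodes held 1 or a few UMIs of Kit, Cd34 or Flt3.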
